A study of Homo sapiens with 6 samples.

Results

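The MAGEA genes of chromosome X are cancer-testis antigens, genes that are normally read in male germ cells and trophoblast, are silent in most other adult tissues and are active again in many tumours. They were followed here in MKN28, an established human gastric adenocarcinoma line, as all rows of the deposited expression table whose symbol is MAGEA1, MAGEA2, MAGEA2B, MAGEA3, MAGEA4, MAGEA6, MAGEA8, MAGEA10, MAGEA11 or MAGEA12. All 10 were found among 19960 genes. The study compared 3 libraries of stable cells carrying a control plasmid with a scrambled short hairpin RNA (shSCR) with 3 libraries of stable cells carrying a plasmid with a hairpin against LTBP1 (shLTBP1), a protein that binds latent TGF-beta in the extracellular matrix. Both groups are the same cell line, grown in the same medium, and the labels name 1 plasmid for each group. The sources used here do not say whether the cells were a pool or a clone, nor whether separate cultures gave the 3 libraries of each group. The p-values below therefore refer to library-to-library spread, which may be technical. MKN28 is listed in public registers of misidentified lines as a derivative of the gastric line MKN74.

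MAGEA proteins share the MAGE homology domain, through which they bind RING-type ubiquitin ligases and change what those ligases mark for degradation. Peptides of several members are presented on HLA molecules and are recognised by T cells, which is why MAGEA1 and MAGEA3 were taken up as vaccine antigens. Their promoters are kept silent by DNA methylation in somatic tissues, and drugs that remove methylation switch many of them on. The family was taken up because MAGEA2 and MAGEA2B fell between these same 2 groups. The difference between shLTBP1 and shSCR is therefore given for the members as a description, and no p-value is printed for any of them. The fit across all genes included 5 members, and nothing is read from their calls.

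The values are read counts normalized by the authors, with library totals of 30479879 to 30941103. LTBP1 itself was at 984 ± 24.2 in shSCR and 58.3 ± 8.89 in shLTBP1 (SD, n = 3 each), which fits the labels. It differed by -4.07 on the log2 scale and lies on chromosome 2, whose 852 tested genes had a median of -0.56. The epithelial markers KRT8, KRT18, KRT19, EPCAM and CDH1 were all high, while the gastric markers TFF1, MUC5AC and CLDN18 were at or near 0 in every library. Library shSCR 3 stood apart in the globin genes, with HBA1 at 803 against 3.36 to 12.0 in the other libraries and HBB at 132 against 0. The closing section gives the summed MAGEA differences with any library left out. The 10 epithelial and gastric markers summed to between 324694 and 345091 in shSCR and between 288870 and 312761 in shLTBP1. KRT8 and KRT18 carry most of that sum. Of the 7 markers tested, 3 rose, 3 fell and 1 did not pass: EPCAM fell to 46.0% of its control level and MUC1 rose to 278% (limma adjusted p = 1.39e-07 and 6.26e-07). EPCAM lies on chromosome 2, where all 852 tested genes had a median log2 fold change of -0.56 against -1.12 for EPCAM. Among 7 blood cell markers the lysosomal gene CD68 rose to 183% (limma adjusted p = 2.87e-05). The 7 fibroblast markers summed to between 1095 and 1337 in shSCR and between 706 and 930 in shLTBP1. COL1A1 carries nearly all of that sum, with 1091 to 1336 in shSCR and 666 to 884 in shLTBP1. LUM was listed at 0 in shSCR and at 36.6 to 52.0 in shLTBP1. The part of these marker differences in the MAGEA values was not tested, and in bulk RNA fewer cells expressing a gene and less RNA per cell cannot be told apart.

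Of the 10 members, 5 had a mean of at least 10 over the 6 libraries and 5 did not. In position, 5 members form a tight cluster on Xq28 (hg38, gene models of GENCODE release 29). From the centromere side this cluster runs MAGEA3 (chromosome X, 152698752 to 152702347, plus strand), MAGEA2B (152714586 to 152718607, plus), MAGEA12 (152733779 to 152737669, plus), MAGEA2 (152749863 to 152753884, minus) and MAGEA6 (152766136 to 152769747, minus). The arrangement is mirrored, with MAGEA3 and MAGEA6 on the outside, MAGEA2B and MAGEA2 inside them and MAGEA12 at the centre. MAGEA1 (153179285 to 153183880, plus) lies 445.0 kb from the cluster's midpoint. The genes CSAG2, CSAG1 and CSAG3, which are further cancer-testis genes, start head to head with MAGEA2B, MAGEA12 and MAGEA2. The stretch between the 2 start sites is 36 bases long for MAGEA2B with CSAG2, 43 for MAGEA12 with CSAG1 and 36 for MAGEA2 with CSAG3.

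The stretch around the starts shows how alike these promoters are in the reference genome. Promoters of 300 bases in the RefSeq table (GRCh38.p14) were matched for 8 of the 10 members, all but MAGEA1 and MAGEA10. The longest run that all 5 genes of the cluster share, ending within 30 bases of their annotated starts, is 24 bases long. It is printed in capitals with the 18 bases before it, on each gene's own strand and 5′ to 3′.
MAGEA2: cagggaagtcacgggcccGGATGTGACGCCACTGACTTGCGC
MAGEA2B: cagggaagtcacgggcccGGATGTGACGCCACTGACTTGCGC
MAGEA12: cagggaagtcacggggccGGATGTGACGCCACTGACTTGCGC
MAGEA3: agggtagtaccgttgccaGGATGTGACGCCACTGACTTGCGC
MAGEA6: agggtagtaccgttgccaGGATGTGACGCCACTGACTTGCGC
These windows lie at chrX:152753879-152753920 (MAGEA2, minus strand), chrX:152714550-152714591 (MAGEA2B, plus), chrX:152733727-152733768 (MAGEA12, plus), chrX:152698690-152698731 (MAGEA3, plus) and chrX:152769752-152769793 (MAGEA6, minus). The windows of MAGEA2 and MAGEA2B are identical, and that of MAGEA12 differs from them at 1 of 42 bases. Those of MAGEA3 and MAGEA6 are identical to each other and differ from MAGEA2 at 11 bases. The 24-base run, searched on both strands, occurs in 11 of 35116 promoters of this length (0.0313%), and these belong to the 5 cluster genes, to CSAG1 and CSAG3 and to the divergent transcripts of MAGEA3 and MAGEA6. No promoter was matched for CSAG2, so that its absence here does not mean that it lacks the run. The window printed for MAGEA2B begins at the base next to the annotated start of CSAG2. The first 10 bases of the run, again on either strand, occur in 0.134% of the promoters searched, that of MAGEA8 among them, and not in those listed for MAGEA4 and MAGEA11. The 300-base promoters of the matched members hold between 9 and 21 CG dinucleotides, the bases at which vertebrate DNA is methylated, against a median of 14 over all promoters.

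Transcript sequences set a limit on which copy a read can be assigned to. The coding sequences of MAGEA2 and MAGEA2B are identical over 945 bases, and those of MAGEA3 and MAGEA6 are 98.1% identical, differing at 18 bases. Of all windows of 50 bases in MAGEA2B transcripts, 100% are also present in MAGEA2 transcripts, so that no window is its own. MAGEA2 has 3.62% of its windows to itself. MAGEA3 and MAGEA6 have 43.5% and 43.6% of their windows to themselves. MAGEA12 and MAGEA1 are well separated, with 86.2% and 99.3% of windows found in no other gene, although the coding sequence of MAGEA12 is 93.2% identical to that of MAGEA2. The values of MAGEA2 and MAGEA2B are therefore also given as a sum, as are those of MAGEA3 and MAGEA6.

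**Figure D1:**
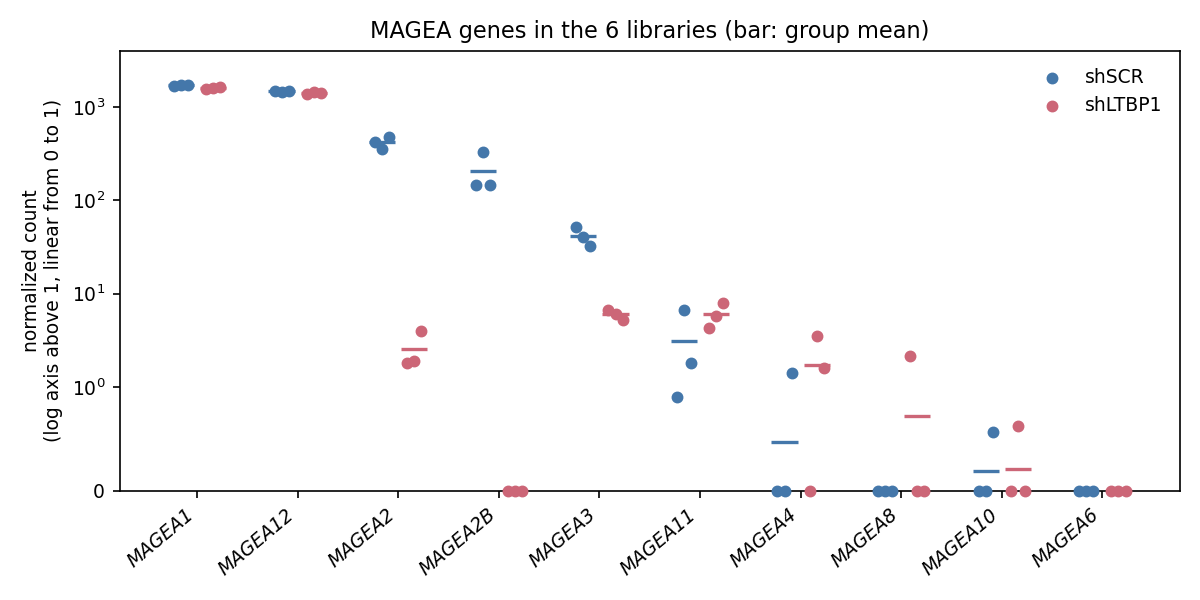
Normalized counts of the 10 MAGEA genes, 1 point per library with a bar at the group mean, on an axis that is logarithmic above 1 and linear from 0 to 1. MAGEA1 and MAGEA12 sit between 1373 and 1736 in all 6 libraries, MAGEA2, MAGEA2B and MAGEA3 are higher in shSCR, and the remaining 5 reach at most 7.98.

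MAGEA1, which has been described as a transcriptional repressor, was the most abundant member. The control libraries had normalized counts of 1661, 1736 and 1716, and those with shLTBP1 had 1552, 1602 and 1643. All shLTBP1 values lay below all shSCR values, by little: the means were 1704 ± 39.0 and 1599 ± 45.3 (SD, n = 3 each), and 93.8% of the control level was measured. MAGEA12, at the centre of the cluster, had 1496, 1432 and 1471 in shSCR and 1373, 1446 and 1422 in shLTBP1. Here the groups overlapped, with means of 1466 ± 32.2 and 1413 ± 37.2 and 96.4% of the control level. The ratio of MAGEA1 to MAGEA12 ran from 1.11 to 1.21 in shSCR and from 1.11 to 1.16 in shLTBP1.

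MAGEA2 was close to 0 in shLTBP1. Its normalized count was 423, 357 and 475 in shSCR and 1.80, 1.87 and 3.94 in shLTBP1. MAGEA2B, which encodes the same protein, had 146, 330.4 and 146 in shSCR. In shLTBP1 all 3 of its values are listed as 0. The share of MAGEA2B in the sum of both varied among the control libraries, at 25.6%, 48.0% and 23.5%, and library shSCR 2, with the highest MAGEA2B, had the lowest MAGEA2. The sum varied less, at 568, 688 and 621 in shSCR against 1.80, 1.87 and 3.94 in shLTBP1. Every control library thus held a clear signal and every shLTBP1 library only a trace, with means of 626 ± 59.8 and 2.54 ± 1.21 (SD, n = 3 each). On the log2(value + 1) scale, which understates the change of low values, the sum differed by -7.52. The pair's level in shLTBP1 was 0.406% of that in shSCR. Since values of a few normalized counts rest on a few reads, that percentage is imprecise.

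MAGEA3 and MAGEA6 encode near-identical proteins that bind the ligase TRIM28 and direct it against the energy sensor AMPK. MAGEA3 was low in the control, with normalized counts of 51.1, 40.8 and 32.7, and lower still in shLTBP1, with 6.70, 5.98 and 5.23. The groups did not overlap, and their means were 41.5 ± 9.18 and 5.97 ± 0.739 (SD, n = 3 each), so that 14.4% of the control level was measured. MAGEA6 is listed at 0 in all 6 libraries, and the sum of both copies equals MAGEA3. How the counting divided reads between these copies is uncertain.

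The remaining members were close to the lower end of detection. MAGEA11, which codes for a coregulator of the androgen receptor, ranged from 0.903 to 6.67 in shSCR and from 4.33 to 7.98 in shLTBP1, with overlapping groups. MAGEA4, whose protein binds the ligase RAD18, was above 0 in 3 libraries and reached at most 3.53. MAGEA10 was above 0 in 2 libraries, at 0.563 and 0.619, and MAGEA8 in 1, at 2.17. Together with MAGEA6 these members summed to between 0.903 and 6.67 in shSCR and between 6.50 and 9.86 in shLTBP1, levels that rest on few reads.

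Per kilobase of transcript, the order of levels in shSCR was MAGEA1 at 997 ± 22.8, MAGEA12 at 833 ± 18.3, MAGEA2 at 207 ± 29.1, MAGEA2B at 107 ± 54.8 and MAGEA3 at 23.6 ± 5.21 normalized counts per kilobase (SD, n = 3). Neighbours in this order were apart by more than their SDs, but the order of MAGEA2 and MAGEA2B rests on how shared reads were divided. In shLTBP1, MAGEA1 at 935 ± 26.5 and MAGEA12 at 803 ± 21.1 kept the first places and no other member exceeded 3.39. MAGEA1 and MAGEA12 made up 43.97% to 44.6% and 36.7% to 39.6% of the summed MAGEA level in shSCR, and 52.3% to 53.3% and 46.1% to 47.2% in shLTBP1. The share of MAGEA2 with MAGEA2B went from between 15.1% and 17.6% to between 0.0611% and 0.128%. The level summed over all 10 members was 3777, 3903 and 3844 in shSCR and 2940, 3066 and 3083 in shLTBP1, or 3841 ± 63.2 and 3030 ± 78.1 (SD, n = 3 each). MAGEA1 and MAGEA12 dominate that sum, so that it differed by only -0.34 on the log2 scale.

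In the fit across all 12789 genes with a mean of at least 10 (limma, Benjamini-Hochberg adjusted p under 0.05), 3 of the 5 members tested were called lower and none higher. Over all tested genes 53.1% were called, 26.8% lower and 26.3% higher. The values of the groups did not overlap for 4 of the 5, all lower in shLTBP1, where this held for 60.8% of all tested genes in either direction and for 30.6% in that direction. Since the members were chosen from this contrast, and MAGEA2, MAGEA2B and MAGEA3 reached the minimum mean only through their shSCR values, nothing is read from these counts.

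**Figure D2:**
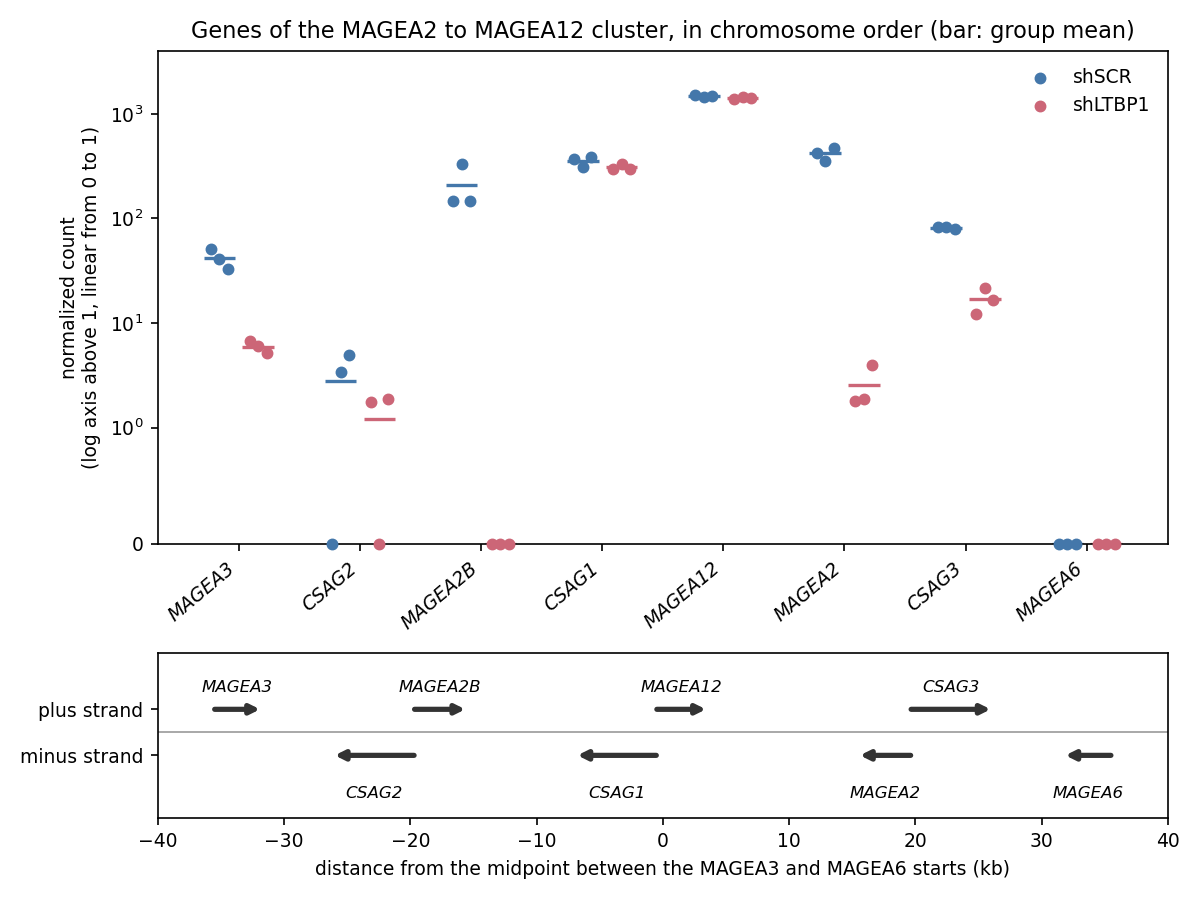
Normalized counts of the 8 genes of the cluster in chromosome order (upper panel, 1 point per library, bar at the group mean, axis logarithmic above 1 and linear from 0 to 1), with a map of their positions and strands in kb (lower panel). MAGEA12 and CSAG1 at the centre stand at 96.4% and 87.6% of their control means, while MAGEA3, MAGEA2B, MAGEA2 and CSAG3 on both sides are lower in shLTBP1.

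The CSAG genes were not used to choose the members, and those with a mean of at least 10, CSAG3 and CSAG1, were tested. CSAG3 starts beside MAGEA2, whose fall led to the choice of this family. Its test is therefore not independent of that choice. CSAG3, which starts 36 bases from MAGEA2 on the other strand, fell. It was at 82.2, 83.0 and 79.6 in shSCR and 12.3, 21.7 and 16.8 in shLTBP1, with no overlap and a log2 fold change of -2.24 (SE 0.25; limma adjusted p = 4.76e-05). CSAG2, the copy beside MAGEA2B, shares 92.3% of its 50-base windows with CSAG3 and was listed between 0 and 4.99 in all libraries. Summed over both copies, the level was 84.4 ± 2.14 in shSCR and 18.1 ± 3.90 in shLTBP1 (SD, n = 3 each). CSAG1, which starts 43 bases from MAGEA12, was at 367, 308 and 384 in shSCR and 299, 332 and 296 in shLTBP1. The groups overlapped, and its log2 fold change of -0.19 (SE 0.11) did not pass (limma adjusted p = 0.169). CSAG3 stood at 20.7% of its control level and MAGEA2 with MAGEA2B at 0.406%. Overlapping transcripts, among them the pseudogene CSAG4 on the strand of MAGEA12, make the division of reads in the cluster uncertain.

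**Figure D3:**
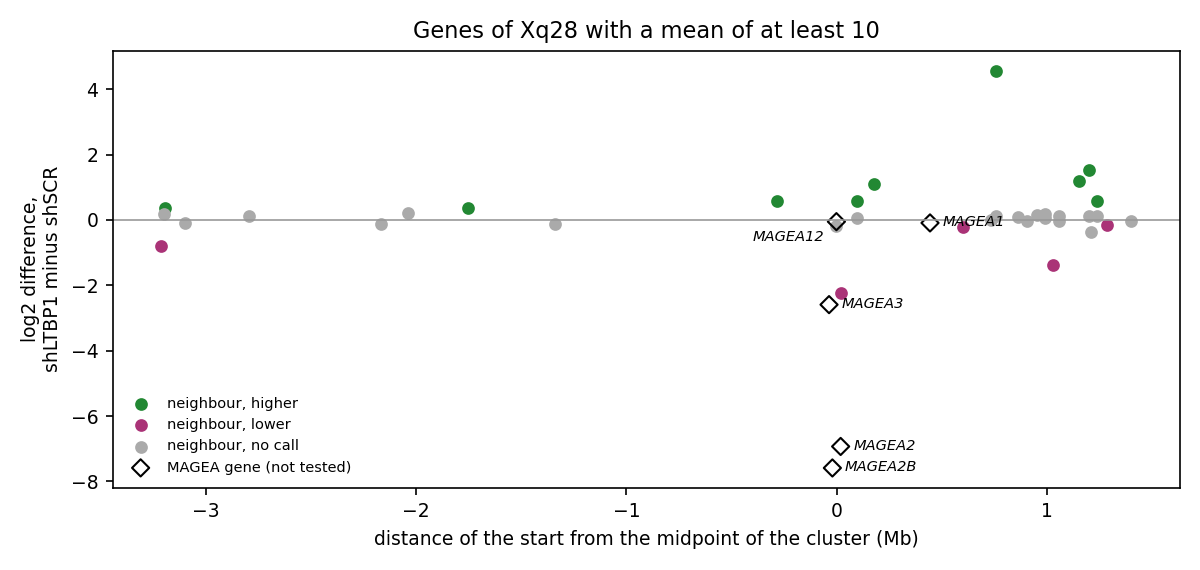
Log2 difference between shLTBP1 and shSCR on the log2(value + 1) scale against distance in Mb from the midpoint of the cluster, for genes with a mean of at least 10; circles are the 35 neighbours tested and diamonds the 5 MAGEA genes above the minimum. MAGEA2, MAGEA2B and MAGEA3 lie from -2.59 to -7.59 at the same position as MAGEA12, while most neighbours lie close to 0.

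Genes around the MAGEA loci differed in both directions. Of 64 other genes in the table whose start lies within 1 Mb of a member, 35 had a mean of at least 10. Of these, 9 rose (25.7%), 5 fell (14.3%) and 21 did not pass, against 26.3% and 26.8% of all tested genes. The log2 fold changes of the 35 neighbours had a median of 0.11, against 0.00 over all tested genes. Without shSCR replicate 1, or without shLTBP1 replicate 1, 3 neighbours fell. GABRA3, a subunit of the GABA-A receptor between MAGEA10 and the cluster, rose to 150% of its control level (limma adjusted p = 2.92e-06). On the other side of the cluster, CETN2, a centrin, was at 149% (adjusted p = 0.000135) and the LIM protein gene ZNF185 at 215% (adjusted p = 5.94e-07; limma). NSDHL, an enzyme of cholesterol synthesis that lies between them, did not pass, with a limma adjusted p of 0.464. Further out, the proteoglycan BGN rose from 1.70 ± 1.53 to 57.2 ± 3.08 (SD, n = 3 each), the adhesion molecule L1CAM by 1.19 on the log2 scale and ARHGAP4 by 1.54. ARHGAP4 lost its call without shLTBP1 replicate 2 (limma adjusted p = 0.0515). IDS, a lysosomal sulfatase, had a log2 fold change of -0.81 and the plexin PLXNB3 one of -1.39 (limma adjusted p = 1.43e-06 and 0.000719). CSAG3 is the other of the 3 largest falls. Chromosome X as a whole, without the members, had 69 genes higher (17.7%) and 134 lower (34.4%) of 389 tested, against 26.3% and 26.8% of all tested genes. GABRA3, CETN2, ZNF185 and NSDHL are named for their position and were chosen after their values were seen.

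Among other MAGE genes, MAGEB2, a type I MAGE gene like the MAGEA genes, was abundant but below the MAGEA sum in every library, with 3178, 3196 and 3166 in shSCR and 2768, 2907 and 2733 in shLTBP1. It fell by 0.18 on the log2 scale (SE 0.05; limma adjusted p = 0.00818), and the groups did not overlap. Its 50 tested neighbours on chromosome X had a median log2 fold change of -0.22, so that its fall was no larger than theirs. MAGEB2 was the only 1 of 14 MAGEB and MAGEC genes in the table with a mean of at least 10. Of 12 type II MAGE genes, which are expressed in many normal tissues, 4 were tested. MAGEF1, which directs a ligase against an iron-sulfur assembly protein, rose from 1954 ± 50.5 in shSCR to 3386 ± 90.0 in shLTBP1 (SD, n = 3 each), with a limma adjusted p of 9.07e-07. It lies on chromosome 3 among genes that were higher as well, the median of its 50 tested neighbours being 0.56 against its own log2 fold change of 0.79. MAGED1 fell by 0.36 on the log2 scale (limma adjusted p = 0.000248). MAGED2 and NSMCE3, a subunit of the SMC5/6 complex, did not pass (limma adjusted p = 0.997 and 0.419). MAGEA9 and MAGEA9B, the further MAGEA genes in the table, were at 0 in all libraries except for 0.466 of MAGEA9B in 1 of them.

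Cancer-testis genes elsewhere moved in both directions. Of 72 other X-linked cancer-testis genes in the table, 3 were tested: CSAG3 and XAGE2 fell, and CSAG1 did not pass. XAGE2 was at 205, 186 and 161 in shSCR and 56.4, 62.8 and 62.2 in shLTBP1, with a log2 fold change of -1.58 (SE 0.14; limma adjusted p = 1.25e-05). Among genes below the minimum mean, PAGE4 ran the other way, with 0, 0 and 1.37 in shSCR and 15.4, 17.3 and 21.4 in shLTBP1 (limma adjusted p = 0.000102 when no minimum was set). CT45A10 went from 9.44, 7.04 and 7.26 to 0, 0 and 1.34 (adjusted p = 0.000933 in the same limma fit). CT45A1, XAGE3 and ACRBP were lower in that fit as well, with log2 fold changes of -2.26, -1.71 and -1.18 (limma adjusted p = 0.0026, 0.0122 and 0.0301). With no minimum, 3 of 70 tested MAGE and cancer-testis genes outside the members rose and 11 fell, where 3385 and 3388 of all 16690 genes did. These 5 genes below the minimum were named after their values were seen. Of 37 autosomal cancer-testis and germline genes, 6 were tested, of which 1 rose, 3 fell and 2 did not pass, where 26.3% of all tested genes rose and 26.8% fell. PRAME, an antigen that serves as a receptor subunit of a cullin ligase, went from 2397 ± 121 in shSCR to 1223 ± 44.9 in shLTBP1 (SD, n = 3 each) and fell with a limma adjusted p of 8.46e-07. The zinc finger gene ZNF165 rose by 0.61 on the log2 scale (limma adjusted p = 0.000161). TEX14 and DPPA2 had log2 fold changes of -1.47 and -0.44 (limma adjusted p = 0.0416 and 0.0463). TEX14 lost its call when any of the 3 shSCR libraries or shLTBP1 replicate 1 or 2 was left out (limma adjusted p = 0.0888 to 0.109), and DPPA2 when any of the 6 libraries was left out (limma adjusted p = 0.064 to 0.112). No germ cell marker reached a mean of 10: the 10 markers summed to between 0.865 and 13.5 in shSCR and between 2.23 and 7.11 in shLTBP1.

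**Figure D4:**
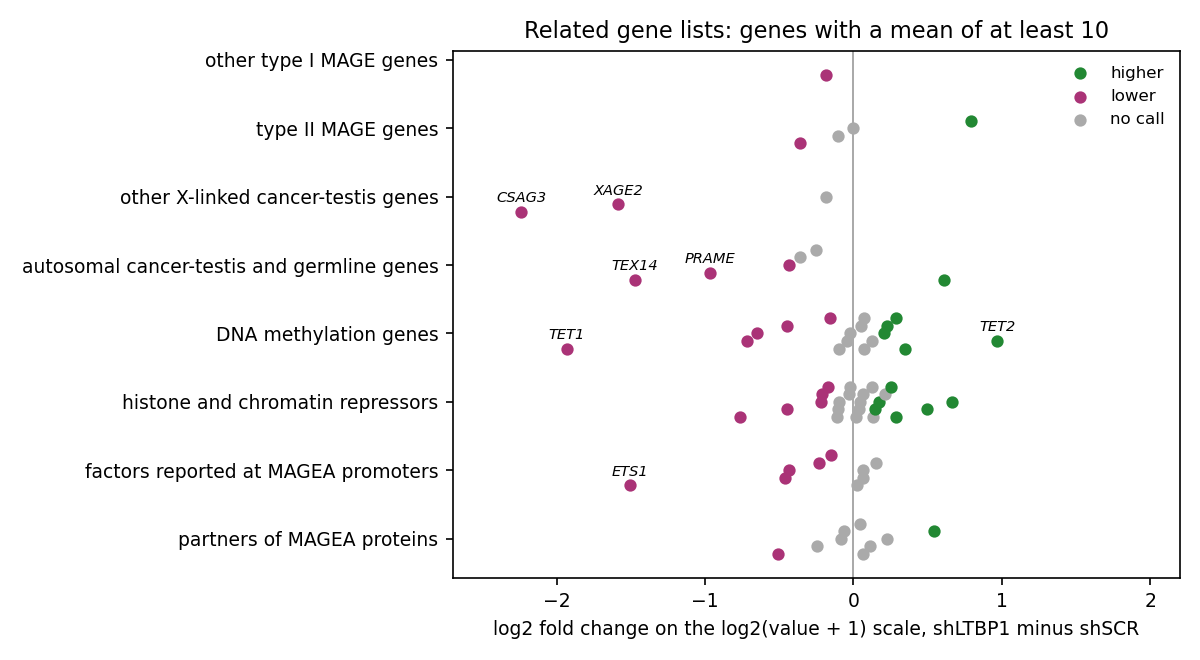
Differences in log2(value + 1) between shLTBP1 and shSCR for single genes of 8 related lists, 1 point per gene with a mean of at least 10, coloured by the limma call at an adjusted p of 0.05. Names mark genes past 0.9 in either direction; CSAG3, TET1, XAGE2, ETS1, TEX14 and PRAME lie on the lower side and TET2 on the higher.

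Genes that write, read or erase DNA methylation, the mark that silences MAGEA promoters, changed in both directions. Of 17 tested, 5 rose (29.4%), 5 fell (29.4%) and 7 did not pass, against 26.3% and 26.8% of all tested genes. The median of their log2 fold changes was 0.05. The dioxygenase TET2, which starts the removal of methylation, rose from 1323 ± 71.7 in shSCR to 2602 ± 299 in shLTBP1 (SD, n = 3 each), with a limma adjusted p of 9.48e-06. TET1 went from 26.8, 31.1 and 31.2 to 8.72, 9.11 and 4.24 (log2 fold change -1.93, limma adjusted p = 0.00176). TET3 and the de novo methyltransferase DNMT3A fell by 0.65 and 0.72 on the log2 scale. Both lie on chromosome 2, where their 50 tested neighbours had medians of -0.62 and -0.58. All 852 tested genes of chromosome 2 had a median of -0.56. DNMT3B did not pass (limma adjusted p = 0.424). The maintenance enzyme DNMT1 was at 8087, 8344 and 9011 in shSCR and 7928, 7408 and 7503 in shLTBP1 (log2 fold change -0.15, limma adjusted p = 0.0301). DNMT1 and DNMT3B were chosen after their values were seen. The methyl-CpG binding genes ZBTB4 and MBD3 rose by 0.35 and 0.29.

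Of 23 chromatin repressors, including histone methyltransferases, deacetylases and the complexes that silence germline genes, 6 rose (26.1%), 5 fell (21.7%) and 12 did not pass. Over all tested genes 26.3% rose and 26.8% fell. L3MBTL2, E2F6 and MGA belong to the Polycomb complex that holds germline genes silent. L3MBTL2 rose by 0.67 on the log2 scale, and E2F6 and MGA had log2 fold changes of -0.76 and -0.45 (limma adjusted p = 3.48e-05, 6.52e-06 and 0.000211). E2F6 lies on chromosome 2, where its neighbours had a median of -0.47. TASOR of the HUSH silencing complex and the histone methyltransferase SETDB1 rose by 0.49 and 0.29, and SIN3A fell by 0.22.

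Of 9 tested transcription factors reported at MAGEA promoters, none rose, 5 fell and 4 did not pass, against 26.8% lower over all tested genes. ETS1, a founding member of the ETS family of activators, was at 838, 705 and 802 in shSCR and 263, 282 and 275 in shLTBP1, with no overlap and a log2 fold change of -1.51 (SE 0.09; limma adjusted p = 6.9e-07). ETS2 and SP3 fell by 0.46 and 0.43 on the log2 scale, and each lies among neighbours with a similar median, -0.38 on chromosome 21 and -0.52 on chromosome 2. All 129 tested genes of chromosome 21 had a median of -0.39. SP1 and CTCF did not pass (limma adjusted p = 0.437 and 0.0571). CTCFL, the testis paralogue of CTCF, was at most 2.45 in any library. GABPA, ELK1, SP1, CTCF and CTCFL were chosen after their values were seen. The part of these falls in the values of any MAGEA gene was not tested.

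Genes of proteins that MAGEA proteins are known to bind came next. Of 9 tested, 7 did not pass, where 53.1% of all tested genes passed in either direction. The ligase gene HUWE1 fell from 14825 ± 968 in shSCR to 10420 ± 633 in shLTBP1 (SD, n = 3 each), with a limma adjusted p of 7.67e-05. TRIM28, among the ligases that MAGE proteins bind, was at 21313, 22029 and 23321 in shSCR and 22117, 24089 and 22397 in shLTBP1, with overlapping groups (limma adjusted p = 0.512). TRIM28 was chosen after its values were seen.

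The 5 genes whose 6 values were closest in pattern to the MAGEA sum were LCMT1, ZFP36L2, RPIA, GMPPA and FAM3C, by Euclidean distance over 6 libraries on the log2 scale among 10720 genes with a shSCR mean of at least 100. Their distances were 0.0519 to 0.0592, and they stood at 77.5% to 80.1% of their control levels, where the MAGEA sum stood at 78.9%. That sum mixes MAGEA1 and MAGEA12, at 93.8% and 96.4%, with MAGEA2 and MAGEA2B, together at 0.406%, and MAGEA3 at 14.4%. None of these members has the pattern of the sum, so that nothing about a single member is read from the 5 genes. ZFP36L2, RPIA and GMPPA lie on chromosome 2, where all 852 tested genes had a median log2 fold change of -0.56. No gene was close to MAGEA2 with MAGEA2B: the nearest by the same measure was the carboxypeptidase gene CPZ at a distance of 5.60, with 127 ± 7.54 in shSCR and 5.96 ± 3.21 in shLTBP1 (SD, n = 3 each), followed by LTBP1 itself at 6.05. That second comparison was added after the values were seen. The members were chosen for the fall of this pair in the same 6 libraries. The comparison could therefore hardly return a close gene, and nothing is read from it.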

How the data were processed

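RNA of 3 shSCR and 3 shLTBP1 libraries of MKN28 cells was sequenced from a directional kit, per the labels' protocols. The submitters' processing notes name hg38, DESeq2, RSEM 1.3.1, STAR 2.7.3a and FastQC 0.10.1. Annotation, strand setting and filters were not found in those sources. Each deposited value is a gene's signal, a DESeq2 normalized count according to what the authors called their table. Whole reads were not recovered: 35.0% to 36.9% of low values were multiples, within 0.1, of the commonest value near 1. Sequenced depth is therefore unknown and no count test was run.

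Groups come from the sample titles. limma 3.58.1 (R 4.3.3) was fitted on log2(value + 1) to 12789 genes with a mean of at least 10 over 6 libraries, with group as the only term, a variance trend and two-sided p-values adjusted by Benjamini-Hochberg at 0.05. The step was tested on simulated data. The members, the gene lists and the tests were chosen with earlier results of these data known. Named genes were all members, LTBP1, up to 3 genes called in each direction with the largest changes per list or among neighbours within 1 Mb, and the 5 genes closest in pattern to the MAGEA sum; not all are described, and 1 partner gene is not reported here. Medians of 25 tested neighbours on each side (members left out) were added after values were seen. Identities and shared 50-base windows came from GENCODE release 29 transcripts, aligned with Biopython 1.88, and promoters from RefSeq. Alternatives were pseudocounts of 0.5 and 5, a minimum mean of 50 or none, quantile and upper quartile scaling, no trend, robust moderation, the replicate number as a block, and each library left out.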

Additional observations from a re-analysis of the deposited data

How the results depend on the processing

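The summed MAGEA level differed by -0.34 on the log2 scale, and by -0.355 to -0.321 with any library left out. MAGEA2 with MAGEA2B lay at -7.78 to -7.37 and MAGEA3 with MAGEA6 at -2.75 to -2.44 with any library left out. With a pseudocount of 5 these 2 differences were -6.39 and -2.07, smaller by construction because the shLTBP1 values are close to 0. No reversal was found among the results and 42 named genes for which alternatives were run. DNMT1, GABRA3, CETN2, ZNF185, GABPA and ELK1 were not among them. A change of sign counted as a reversal only for summed or member differences larger than their SD and for named genes that were called. MAGEA10, close to 0 in all libraries, changed sign from 0.017 to -0.215 without shLTBP1 replicate 2. Of 623 alternative values of the 42 named genes 607 kept their side of the threshold, and the other 16 belong to TEX14, DPPA2 and ARHGAP4. Of the other MAGE and cancer-testis genes, 7 of 14 tested fell in the main fit. When no minimum mean was set 11 of 70 fell, and with a mean of at least 50 it was 4 of 11. Over all tested genes the same 3 settings gave 3426 of 12789, 3388 of 16690 and 3236 of 11471. Of the Xq28 neighbours, 3 fell with a mean of at least 50 and 3 with quantile normalization, against 5, and 3 to 5 fell with a library left out; the 3 were found without shSCR replicate 1 and without shLTBP1 replicate 1, and the cause was not tested. The replicate numbers do not pair the libraries: deviations of same-numbered libraries correlated at -0.009, 0.058 and -0.001. With the replicate number as a block 3347 genes rose and 3408 fell, against 3362 and 3426, and DPPA2 lost its call (limma adjusted p = 0.081). DPPA2 also lost it with no minimum (0.0909), a mean of at least 50 (0.0579) and upper quartile scaling (0.0559), as limma adjusted p. Depth is unknown, so that levels of a few normalized counts cannot be told from single reads.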
